A study of Mus musculus with 8 samples.

Results

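*Hes1*, *Hes5*, *Hes6*, *Hes7*, *Hey1*, *Hey2* and *Heyl* are the 7 Hes and Hey repressor genes described here, out of 22180 genes measured in mouse cranial neural crest cells (cNCCs) with and without Shh ligand. The genes were chosen by name, as array rows whose annotated symbol is 1 of the 7, with earlier results of these data known. The rows of the array are transcript clusters, groups of probes that stand for a gene or part of one, and 9 of the 41345 clusters carry the symbol of a member. *Hes5* and *Hes7* have 2 clusters each, and for both the cluster with the highest mean over the 8 arrays was used, a choice that rests on the level and not on the difference between treatments. No filter on dim signals was applied, so all 7 genes were tested. The cells are O9-1, a single immortalized line of mouse cNCCs grown in culture without the other cell types of the embryonic face. After 24 h of attachment, 4 cultures received 0.4 μg/mL of SHH-N, a peptide that holds the signaling N-terminal part of SHH, in medium with 1% FBS, and 4 received the same medium with vehicle only. RNA of every culture was collected at 48 h and hybridized to its own Affymetrix Mouse Gene 2.0 ST array. The labels call the cultures biological replicates without saying whether they came from separate passages, so the p-values measure only the spread between these cultures.

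Hes and Hey proteins are basic helix-loop-helix transcription factors that repress the genes they bind. Hes proteins do so largely by recruiting corepressors of the Groucho/TLE family. Most Hes and Hey genes are known as targets of Notch signaling. A ligand on a neighboring cell leads to cleavage of the Notch receptor, and its freed intracellular domain joins the DNA-binding protein Rbpj and a Mastermind coactivator to switch these genes on. Other signals, Shh and BMP among them, can also act on some of the genes, and in embryos the family is known for keeping progenitors undifferentiated, for timing segmentation and for shaping arteries and the cells around them.

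The values are log2 signals, and a difference of 1 is a doubling. The median log2 signal of an array was between 5.70 and 5.76. All 3 measured hedgehog readouts were higher in SHH-N cultures, and *Gli1*, a transcription factor that Shh signaling induces, had log2 signals of 9.92 to 10.15 in SHH-N cultures, against 5.05 to 5.54 in vehicle cultures. Of the 7 markers of cranial neural crest mesenchyme, 6 had signals well above the array median in every culture, while *Alx1* had log2 signals of 4.56 to 5.05 in SHH-N cultures and 4.80 to 5.32 in vehicle cultures, below the median of every array. SHH-N replicate 3 stood apart from the other SHH-N arrays on the first 2 principal components, so values without it are given below. No pair of arrays held identical values.

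In SHH-N cultures 4 of the 7 genes were higher, and none was lower. *Hey1* and *Hes1* differed most between the treatments, *Hey2* less and *Heyl* least of the 4. *Hes5*, *Hes6* and *Hes7* did not pass the test, which was limma over all 41345 clusters with a Benjamini-Hochberg adjusted p under 0.01. By the same rule 6.48% of all clusters passed, and 2.97% passed with higher signal in SHH-N. The members' median log2 fold change was 0.54, against -0.01 over all clusters. Because the genes were chosen with earlier results known, these counts describe the 7 genes and are no test of the family.

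**Figure D1:**
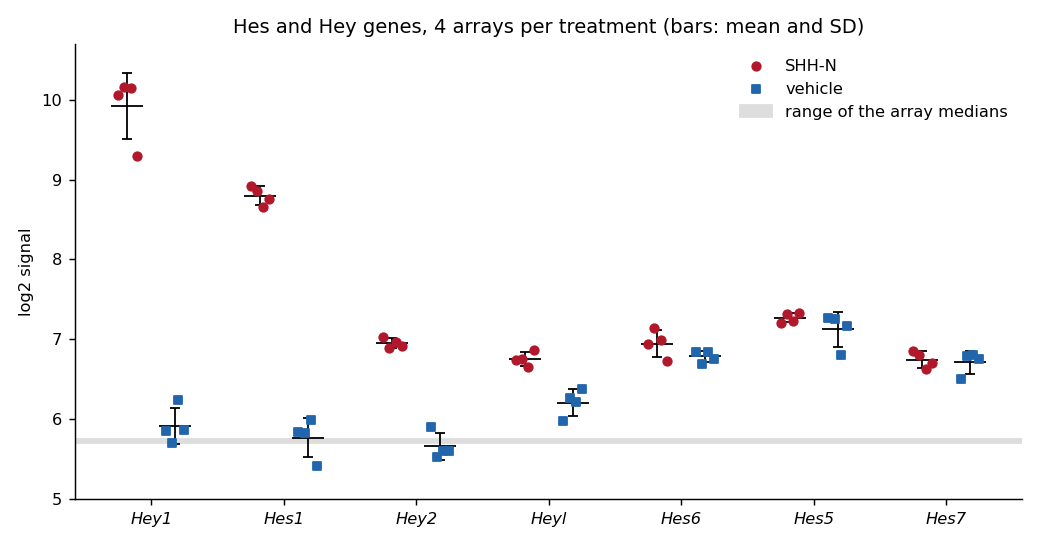
Log2 signal (vertical axis) of the 7 Hes and Hey genes on each array, with SHH-N arrays as red circles and vehicle arrays as blue squares (4 each), the mean and SD as black bars and the range of the array medians (5.70 to 5.76) as a grey band. The treatments are separate for *Hey1*, *Hes1*, *Hey2* and *Heyl* and overlap for *Hes6*, *Hes5* and *Hes7*.

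*Hey1* (transcript cluster 17404011), a repressor known downstream of Notch in developing vessels, heart and bone, had the largest difference of the 7. Its log2 signals were 10.06, 10.16, 10.15 and 9.30 in SHH-N replicates 1 to 4, against 5.85, 5.70, 6.24 and 5.86 in vehicle replicates 1 to 4. SHH-N replicate 4 was the lowest of its group and still lay 3.06 above the highest vehicle array. The mean log2 signal was 9.92 ± 0.41 in SHH-N cultures and 5.91 ± 0.23 in vehicle cultures (SD, n = 4 each). The log2 fold change was 4.01 (SE of the estimate 0.21, 95% interval 3.53 to 4.48), a 16.1-fold higher signal, with adjusted p = 6.78e-06 from limma. That was the rise with rank 5 among the 41345 clusters. Without SHH-N replicate 4 the log2 fold change was 4.21, and without SHH-N replicate 3 it was 3.93.

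*Hes1* (cluster 17324623), the most broadly used Notch target of the family and the gene whose protein is known to oscillate by repressing its own promoter, came next. Its log2 signals were 8.92, 8.86, 8.65 and 8.76 in SHH-N replicates 1 to 4, against 5.84, 5.83, 5.99 and 5.41 in vehicle replicates 1 to 4. All SHH-N arrays lay above all vehicle arrays, by 2.66 at the closest. The means were 8.80 ± 0.12 in SHH-N cultures and 5.77 ± 0.25 in vehicle cultures (SD, n = 4 each). The log2 fold change was 3.03 (SE 0.13, 95% interval 2.74 to 3.32), or 8.16-fold, with adjusted p = 2.38e-06 from limma and rank 13 among all rises. It was 3.08 without SHH-N replicate 3.

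*Hey2* (cluster 17240077), known for its part in arterial and ventricular identity, had log2 signals of 7.03, 6.89, 6.96 and 6.92 in SHH-N replicates 1 to 4, against 5.91, 5.53, 5.60 and 5.60 in vehicle replicates 1 to 4. The SHH-N arrays lay within a narrow range, and the gap to the highest vehicle array was 0.99. The means were 6.95 ± 0.06 in SHH-N cultures and 5.66 ± 0.17 in vehicle cultures (SD, n = 4 each), with a log2 fold change of 1.29 (SE 0.09, 95% interval 1.09 to 1.49), or 2.45-fold, and adjusted p = 3.43e-05 from limma. Its rise had rank 214 among all clusters, and the log2 fold change was also 1.29 without SHH-N replicate 3.

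In vehicle cultures the mean signals of *Hes1* (5.77), *Hey1* (5.91) and *Hey2* (5.66) lay close to the array median. The files give no background level, and if these vehicle signals are background, the true fold is at least as large as the one printed.

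*Heyl* (cluster 17418177), a Hey family member known in pericytes, vascular smooth muscle and somites, had log2 signals of 6.74, 6.75, 6.65 and 6.86 in SHH-N replicates 1 to 4, against 5.97, 6.26, 6.21 and 6.38 in vehicle replicates 1 to 4. The groups did not overlap, with 0.27 between the lowest SHH-N array and the highest vehicle array. The means were 6.75 ± 0.09 in SHH-N cultures and 6.21 ± 0.17 in vehicle cultures (SD, n = 4 each). The log2 fold change was 0.54 (SE 0.09, 95% interval 0.33 to 0.76), or 1.46-fold, with adjusted p = 0.00632 from limma and rank 1066 among all rises. Of the 7 genes this call was the only one to depend on the setting. It was lost in 9 of 17 alternatives, with adjusted p of 0.0167 in a one-way analysis of variance on the same arrays and 0.0114 without SHH-N replicate 3, while the log2 fold change stayed between 0.47 and 0.60.

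For these 4 genes all SHH-N arrays were above all vehicle arrays, and 8.61% of all clusters had that pattern. With that pattern the two-sided exact permutation test always gives p = 0.0286, the smallest that 4 against 4 arrays allow. The value therefore adds nothing to the separation itself.

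**Figure D2:**
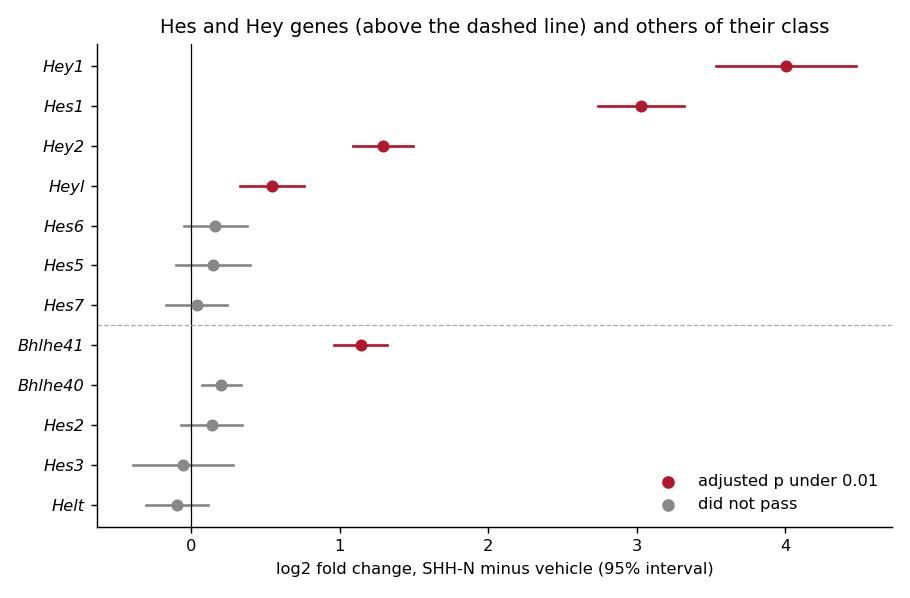
Log2 fold change, SHH-N minus vehicle, with its 95% interval (horizontal axis) for the 7 Hes and Hey genes above the dashed line and for 5 other genes of the same class below it, red where the adjusted p was under 0.01 and grey where it was not. The intervals of *Hes6*, *Hes5* and *Hes7* include 0, and *Bhlhe41* at 1.14 lies near *Hey2* at 1.29.

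*Hes6* (cluster 17225499) is known to counteract *Hes1* and to favor differentiation, and it is generally not counted among the direct Notch targets. Its log2 signals were 6.94, 7.14, 6.99 and 6.73 in SHH-N replicates 1 to 4, against 6.85, 6.69, 6.84 and 6.76 in vehicle replicates 1 to 4, and the groups overlapped. The log2 fold change was 0.16 (95% interval -0.05 to 0.37), with adjusted p = 0.341 from limma, and it was 0.098 without SHH-N replicate 2.

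*Hes5* (cluster 17433696), the classical Notch target of neural progenitors, had log2 signals of 7.21, 7.31, 7.23 and 7.33 in SHH-N replicates 1 to 4, against 7.27, 7.26, 6.80 and 7.16 in vehicle replicates 1 to 4. Vehicle replicate 3 was low, and the other vehicle arrays lay at or near the SHH-N arrays. The log2 fold change was 0.15 (95% interval -0.10 to 0.40), with adjusted p = 0.474 from limma, and it was 0.039 without vehicle replicate 3. The second *Hes5* cluster (17422443) was dimmer, with means of 6.14 in SHH-N cultures and 6.03 in vehicle cultures, with a log2 fold change of 0.11 and adjusted p = 0.427 from limma.

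*Hes7* (cluster 17251557), the oscillating repressor of the segmentation clock in presomitic mesoderm, had log2 signals of 6.86, 6.80, 6.63 and 6.70 in SHH-N replicates 1 to 4, against 6.50, 6.79, 6.80 and 6.75 in vehicle replicates 1 to 4. The groups overlapped over most of their range. The log2 fold change was 0.04 (95% interval -0.17 to 0.24), with adjusted p = 0.862 from limma. Its second cluster (17264519) gave the opposite sign, -0.14 with adjusted p = 0.213 from limma, on log2 signals of 6.37 to 6.56 in SHH-N cultures and 6.51 to 6.66 in vehicle cultures. For these 3 genes the upper bounds of the intervals, 0.37, 0.40 and 0.24, limit a rise in array signal only. The share of background in these signals is unknown, so they do not limit a rise in RNA.

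In size, the log2 fold changes ran in the order *Hey1*, *Hes1*, *Hey2*, *Heyl*, *Hes6*, *Hes5* and *Hes7*. The order was read from the same values, so it is a description. Exact permutation tests of the 6 neighboring pairs gave Benjamini-Hochberg adjusted p of 0.0571 or more. Tests on the values that set the order cannot decide it, nor can the intervals that follow. The 95% intervals of *Hey1*, *Hes1*, *Hey2* and *Heyl* did not overlap one another, while that of *Heyl* (0.33 to 0.76) overlapped that of *Hes6* (-0.05 to 0.37), and those of *Hes6*, *Hes5* and *Hes7* overlapped throughout. Since the vehicle signals of the first 3 genes lay close to the array median, their true folds may be larger, and the distances between them are not fixed by these arrays.

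The bases just upstream of the start site are shown for 3 members with different responses, *Hey2*, which rose, and *Hes5* and *Hes7*, which did not pass, because all 3 hold the core of the site that Rbpj binds (a choice made after the matches were seen). Promoters of 4 of the 7 members were matched by symbol in the RefSeq table (assembly GRCm38.p6), those of *Hes5*, *Hes6*, *Hes7* and *Hey2*, with 2 start sites for *Hes6*. *Hes1*, *Hey1* and *Heyl* were not matched. Each sequence runs 5′ to 3′ over the 250 bases before the start, and capitals mark the Rbpj (CSL) core, GTGGGAA, or its reverse complement TTCCCAC.
Hey2, chr10:30842784-30843033, minus strand: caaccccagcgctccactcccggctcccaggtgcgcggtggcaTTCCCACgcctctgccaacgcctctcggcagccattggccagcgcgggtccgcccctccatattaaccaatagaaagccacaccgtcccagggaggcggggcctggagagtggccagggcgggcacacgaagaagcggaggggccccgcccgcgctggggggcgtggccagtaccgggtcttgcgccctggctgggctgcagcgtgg
Hes5, chr4:154960673-154960922, plus strand: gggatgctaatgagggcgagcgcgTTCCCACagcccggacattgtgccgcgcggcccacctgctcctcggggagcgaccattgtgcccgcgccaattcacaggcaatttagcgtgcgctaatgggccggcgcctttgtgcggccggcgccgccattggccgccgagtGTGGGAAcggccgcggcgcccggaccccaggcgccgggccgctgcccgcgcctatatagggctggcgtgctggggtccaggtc
Hes7, chr11:69120203-69120452, plus strand: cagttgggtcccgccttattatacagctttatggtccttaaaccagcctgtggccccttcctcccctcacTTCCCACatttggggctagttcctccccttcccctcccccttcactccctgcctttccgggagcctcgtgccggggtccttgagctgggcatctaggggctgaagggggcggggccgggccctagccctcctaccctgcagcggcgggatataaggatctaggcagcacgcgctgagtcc
The core stood once in *Hey2*, its first base 207 bases before the start, and once more across the start itself, with 4 bases before it and 3 from it on. It stood at 2 places in *Hes5*, 226 and 83 bases before the start, and once in *Hes7*, 180 bases before it. Neither *Hes6* promoter held it. Over 32851 promoters of the same length, 5.42% held the core on either strand.

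Motifs bound by Hes and Hey proteins themselves, and by Gli factors, were searched in the same promoters. The N box, CACNAG, was found once in *Hes7* and once at the second *Hes6* start, and 36.7% of all promoters hold it. The class B E box, CACGTG, found in 6.02% of all promoters, and the Gli site GACCACCCA, found in 0.225%, were in none of the 5 promoters. All motifs were searched on both strands, and the 4 do not share positions in these sequences. A match is only a run of letters, and a motif outside these 250 bases would not be seen.

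Other genes of the hairy and enhancer-of-split class were read from the same fit, and 1 of 5 was higher. *Bhlhe41*, a repressor of the circadian clock that binds the class B E box, had log2 signals of 8.43, 8.53, 8.63 and 8.63 in SHH-N replicates 1 to 4, against 7.29, 7.40, 7.55 and 7.43 in vehicle replicates 1 to 4. The groups were far apart, with a log2 fold change of 1.14 (SE 0.08, adjusted p = 3.21e-05 from limma). *Bhlhe40*, its close relative, had 0.20 (adjusted p = 0.0534 from limma). *Hes2*, *Hes3* and *Helt* had 0.14, -0.06 and -0.10, on signals near or below the array median.

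Among the Groucho/TLE corepressors, which the C-terminal motif of Hes proteins recruits, 3 of 6 were higher and none lower. Over all clusters 2.97% passed with higher signal in SHH-N. *Tle1* had a log2 fold change of 0.60 (SE 0.07, adjusted p = 5.99e-04 from limma), *Tle3* 0.45 (adjusted p = 0.00278) and *Tle4* 0.35 (adjusted p = 0.00219). A second and much dimmer *Tle1* cluster gave -0.08 (adjusted p = 0.589). *Tle2* at -0.37 (adjusted p = 0.0135), *Tle6* at -0.31 (0.0273) and *Tle5*, a short member that lacks the repressor's WD repeats, at -0.14 (0.264) did not pass. Neither count is firm. The 3 higher became 1 without vehicle replicate 2 or with a fold of at least 1.5, and the 0 lower became 1 with limma trend and robust settings and 2 with a filter on dim clusters or an adjusted p under 0.05.

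Of the 5 canonical Notch ligands, 1 was higher. *Jag1* had log2 signals of 10.38, 10.42, 10.40 and 10.46 in SHH-N replicates 1 to 4, against 9.06, 9.10, 9.16 and 8.90 in vehicle replicates 1 to 4. Its log2 fold change was 1.36 (SE 0.07, adjusted p = 5.82e-06 from limma). The remaining ligands did not pass, with *Dll1* at -0.22, *Dll3* at 0.12, *Dll4* at 0.07 and *Jag2* at -0.01, and *Dll3*, *Dll4* and *Jag2* had signals near or below the array median.

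Of the 4 Notch receptors, *Notch3*, the receptor known from pericytes and vascular smooth muscle, was higher. Its log2 signals were 7.93 to 8.13 in SHH-N cultures and 7.36 to 7.44 in vehicle cultures, with a log2 fold change of 0.65 (SE 0.06, adjusted p = 2.04e-04 from limma). *Notch1* had 0.47 and just missed the threshold (adjusted p = 0.0101), and it passed with limma trend and robust settings, quantile normalization, median centring and a filter on dim clusters. *Notch2* (-0.16) and *Notch4* (-0.08) did not pass.

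None of the 13 measured genes for cleavage and glycosylation of the receptor passed, with log2 fold changes of -0.41 to 0.02. This count also depended on the setting, with 1 gene lower in the one-way analysis of variance and with limma trend and robust settings, and 2 lower with the filter on dim clusters or an adjusted p under 0.05. *Aph1c*, a subunit of the γ-secretase that cleaves Notch, had -0.41 (adjusted p = 0.0237 from limma), and *Adam17*, a protease of the cell surface, -0.30 (adjusted p = 0.0145).

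The nuclear complex through which Notch switches on Hes and Hey genes changed in both directions. *Maml3*, a Mastermind coactivator, was higher by 1.16 (SE 0.08, adjusted p = 3.35e-05 from limma), with mean log2 signals of 8.00 ± 0.07 in SHH-N cultures and 6.83 ± 0.13 in vehicle cultures (SD, n = 4 each). Its relative *Maml2* fell by 1.12 on the log2 scale (SE 0.05, adjusted p = 4.23e-06), with signals of 9.55 to 9.66 in SHH-N cultures and 10.68 to 10.75 in vehicle cultures. *Rbpj*, the DNA-binding subunit, fell by 0.58 (SE 0.05, adjusted p = 1.72e-04), with signals of 10.14 to 10.23 in SHH-N cultures and 10.71 to 10.80 in vehicle cultures. A second *Rbpj* cluster, near the array median, gave -0.23 (adjusted p = 0.424). The other 4 genes of the complex did not pass. With a fold of at least 1.5 the lower genes became 1, without *Rbpj*. They became 3 with limma trend and robust settings, the filter on dim clusters or an adjusted p under 0.05.

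None of 13 inhibitors and turnover factors of Notch passed, with log2 fold changes of -0.15 to 0.24. *Nrarp*, a feedback inhibitor and Notch target, had 0.23 (95% interval -0.05 to 0.50, adjusted p = 0.304 from limma), and *Spen*, a corepressor that binds Rbpj, had 0.24 (adjusted p = 0.0342). With limma trend and robust settings, the filter on dim clusters or an adjusted p under 0.05, 1 of the 13 was higher. None of 7 proneural genes, the activators that Hes proteins are known to repress in the nervous system, passed either, with log2 fold changes of -0.09 to 0.15. *Neurog2* had log2 signals of 6.68 to 6.98 in SHH-N cultures and 6.79 to 6.94 in vehicle cultures, and the other measured proneural genes were near or below the array median.

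**Figure D3:**
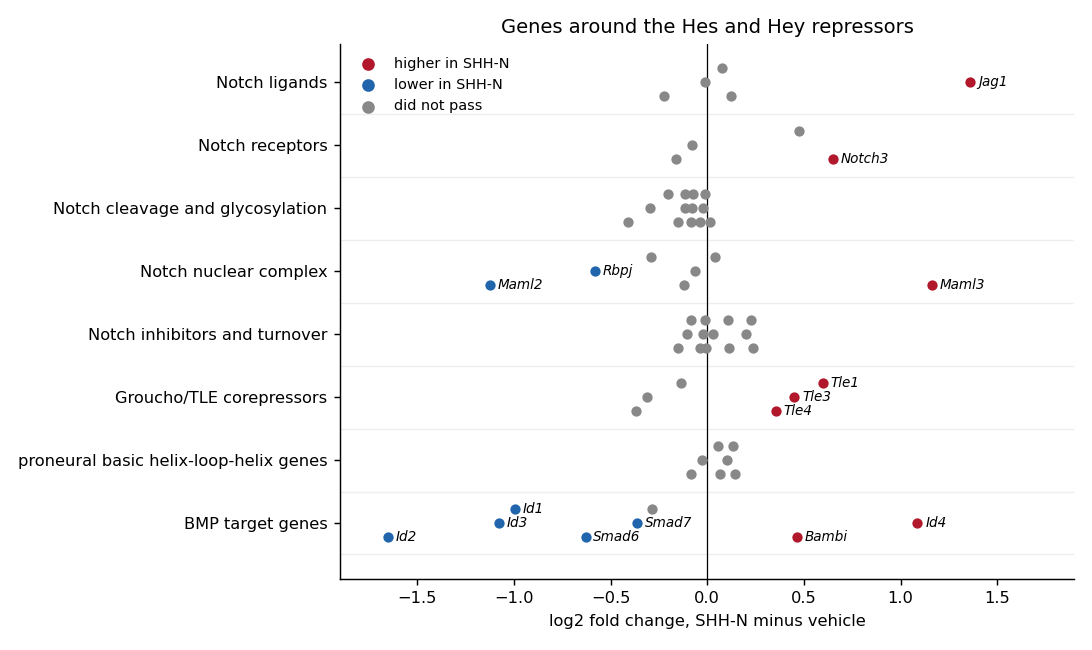
Log2 fold change, SHH-N minus vehicle (horizontal axis), of every measured gene in 8 lists around the Hes and Hey repressors, red where higher and blue where lower in SHH-N cultures at an adjusted p under 0.01 and grey otherwise. Of the 5 Notch ligands *Jag1* (1.36) and of the 4 receptors *Notch3* (0.65) were higher, while 6.48% of all clusters passed, 2.97% with higher signal. Changes run both ways in the nuclear complex (*Maml3* 1.16, *Maml2* -1.12) and are mostly downward among BMP targets (*Id2* -1.65).

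BMP signaling, which is known to induce Hey genes in some mesenchymal and vascular cells, was read from 8 target genes, of which 2 were higher, 5 lower and 1 did not pass. By the same rule 1226 of all 41345 clusters were higher and 1453 lower. Id proteins are helix-loop-helix inhibitors that can bind Hes and other partners without binding DNA. *Id2* fell by 1.65 (adjusted p = 1.96e-06 from limma), *Id3* by 1.08 (5.71e-05) and *Id1* by 1.00 (0.00109). *Id4* was higher by 1.09 (3.92e-05). Leaving out 1 array reduced the 2 higher genes to 1 in each of the 8 cases and the 5 lower genes to 3 in 5 of them.

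Since *Hey1*, *Hey2*, *Heyl* and *Notch3* are known from vessels, markers of the cells of vessel walls were read on the same arrays. Among 5 endothelial markers *Cdh5*, an adhesion protein of endothelial junctions, was higher by 0.67 (adjusted p = 0.00111 from limma), with log2 signals of 5.92 to 6.27 in SHH-N cultures and 5.35 to 5.47 in vehicle cultures. This call held in 16 of 17 alternatives and was lost with the replicate number as a block (adjusted p = 0.0143 from limma). Of the other endothelial markers, *Kdr*, *Tek* and *Tie1* lay below the array medians on every array, and *Pecam1* at 5.69 to 5.97 was close to the medians. The mean log2 signal of the list was 5.52 to 5.61 over the SHH-N arrays and 5.44 to 5.50 over the vehicle arrays. This difference is no shift of the whole list, whose median log2 fold change was -0.003. The 4 markers that did not pass had 0.09 (*Pecam1*), -0.003 (*Kdr*), -0.15 (*Tek*) and -0.06 (*Tie1*). Among 6 markers of pericytes and vascular smooth muscle *Cspg4*, the NG2 proteoglycan, was higher by 1.25 (adjusted p = 4.69e-06), with signals of 8.85 to 9.04 in SHH-N cultures and 7.71 to 7.75 in vehicle cultures. *Kcnj8*, a potassium channel of pericytes, had 0.54 and just missed the threshold (adjusted p = 0.0106 from limma). Its treatments did not overlap, a pattern that 8.61% of all clusters had with SHH-N higher. The count of higher markers became 2 with limma trend and robust settings, array weights, quantile normalization, median centring, the filter on dim clusters or an adjusted p under 0.05. The list mean was 7.20 to 7.28 over the SHH-N arrays and 6.88 to 6.99 over the vehicle arrays, and the median log2 fold change of the list was 0.09. *Pdgfrb* was bright in all cultures, at 11.32 to 11.57 in SHH-N cultures and 11.58 to 11.65 in vehicle cultures. Its treatments did not overlap either, with SHH-N lower, and its log2 fold change was -0.16 (adjusted p = 0.189 from limma). *Abcc9* had 0.18, *Myh11* -0.002 and *Rgs5* -0.12, and none of these passed. *Rgs5* lay below the array median in all cultures.

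The markers of cranial neural crest mesenchyme moved as well, 4 of 7 lower and 1 higher. Over all 41345 clusters, 1453 passed with lower and 1226 with higher signal in SHH-N. *Snai2* fell by 1.53 (adjusted p = 2.22e-06 from limma), *Tfap2a* by 0.98 (1.03e-04) and *Prrx1* by 0.62 (1.02e-04), and the list mean was 9.39 to 9.46 over the SHH-N arrays and 9.86 to 9.96 over the vehicle arrays. The higher marker, *Pdgfra* at 0.32 (adjusted p = 0.00934), lost its call in each of the 8 fits without 1 array and with a fold of at least 1.5. The 4 lower became 3 in 7 of those 8 fits, in the one-way analysis of variance, with median centring and with a fold of at least 1.5. None of 5 neuronal and none of 4 skeletal muscle markers passed. The part of these shifts in the values of the Hes and Hey genes was not tested, and in whole cultures fewer cells of a type and less RNA per cell cannot be told apart.

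For each member that rose, the genes with the most similar pattern over the 8 arrays were found among 22179 other genes, by the root mean square difference of log2 signals after each gene was centred on its own mean. *Hes1* was closest to *Thy1*, a surface glycoprotein (0.190), *Egfr*, the EGF receptor (0.221), and *Slc40a1*, the iron exporter ferroportin (0.240), with log2 fold changes of 3.00, 3.06 and 2.67. *Hey1* was closest to *Igfbp7*, a secreted IGF-binding protein (0.308), *Mc5r*, a melanocortin receptor (0.312), and the SHH receptor *Ptch1* (0.359), with log2 fold changes of 3.65, 3.90 and 4.39. *Hey2* was closest to *Cip2a*, an inhibitor of protein phosphatase 2A (0.0746), *Zdhhc14*, a palmitoyltransferase (0.0842), and *Spag5*, a mitotic spindle protein (0.0925). *Heyl* was closest to *Cracd* (0.0702), *Nr1d1*, the circadian repressor Rev-erb alpha (0.0763), and *Igdcc4* (0.0772). This measure follows mainly the size of the change, so the genes named are largely those with a similar fold.

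**Figure D4:**
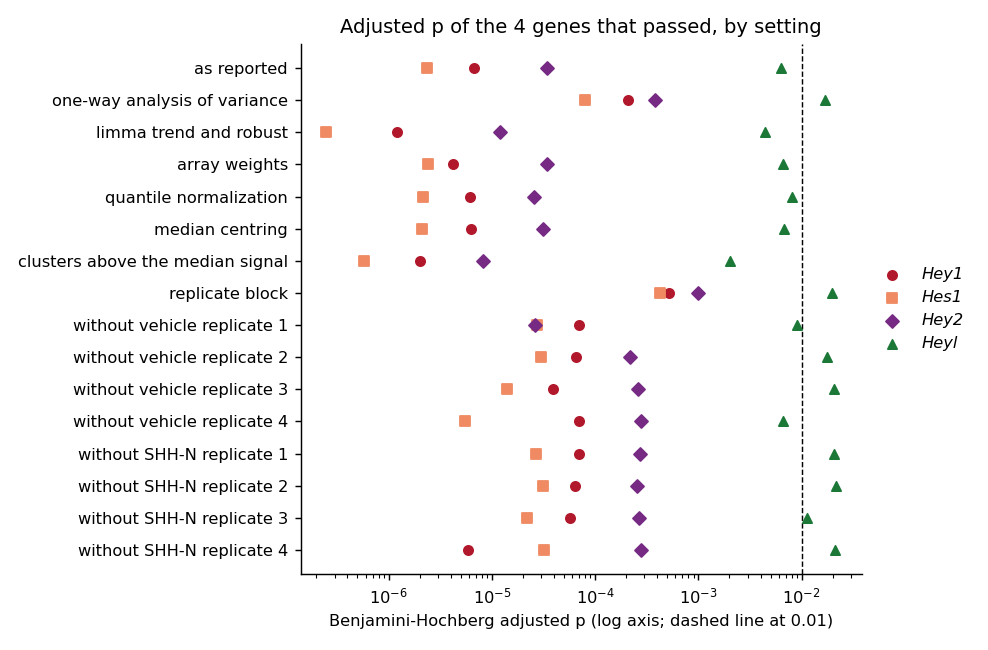
Benjamini-Hochberg adjusted p on a log axis for *Hey1*, *Hes1*, *Hey2* and *Heyl* as reported and under 15 other settings, one per line, with the threshold of 0.01 dashed. *Hey1*, *Hes1* and *Hey2* stay left of the line in every setting shown, with adjusted p of at most 5.23e-04, 4.25e-04 and 9.96e-04, while *Heyl* crosses it, reaching 0.0215.

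The calls of *Hes1*, *Hey1* and *Hey2* held in all 17 alternatives, among them each array left out in turn. Their log2 fold changes stayed between 2.91 and 3.10, between 3.93 and 4.21 and between 1.25 and 1.37, in that order.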

How the data were processed

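RNA of 8 O9-1 cultures (4 SHH-N, 4 vehicle) was analysed with 1 array per culture. Per the paper's methods and the submitters' processing notes, the authors read intensities with Affymetrix GCOS, converted them to signals with Expression Console and used Transcriptome Analysis Console 2.0. The deposited log2 values had been made comparable between arrays by the authors, and the algorithm and genome build are not given in the sources used here. Making arrays comparable generally assumes that most genes do not change, and dim signals hold an unknown share of background.

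The log2 values were used as deposited. All 41345 transcript clusters were fitted with limma 3.58.1 (R 4.3.3, lmFit and eBayes, default settings, no replicate block) with calls made below 0.01 after Benjamini-Hochberg adjustment. The array annotation gives 1 symbol for 23521 clusters, several for 1820 and none for 16004, and only the first were named. A gene is represented by its cluster with the highest mean. Exact permutation tests used scipy 1.17.1 in Python 3.11.15, and figures matplotlib 3.10.9. The fit was tested on simulated data.

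The members and lists were chosen with earlier results of these data known. Named were all members, up to 4 passing genes per list by size of change, and the 3 genes most like each passing member. Other genes were named after their values were seen. Some genes of the lists are not reported here. Alternatives were a one-way analysis of variance (the methods name the console's threshold but not its test), limma trend and robust settings, array weights, quantile normalization, median centring, only the 20672 clusters above the median signal, a replicate block, each array left out, an adjusted p under 0.05, a fold of at least 1.5 and the other clusters of *Hes5* and *Hes7*.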

Additional observations from a re-analysis of the deposited data

Results flagged for a closer look

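In 4 of 66 combinations of a gene and a treatment, 1 of the 4 arrays lay apart from the other 3, its gap to the nearest array exceeding the share of the whole range that Dixon's 95% criterion allows. Chance flags about 1 in 20 such groups, and over all clusters 6.001% of the SHH-N groups and 5.43% of the vehicle groups met the same criterion. *Hey1* in SHH-N replicate 4 was at 9.30, with the nearest SHH-N array at 10.06 (gap over range 0.890). Without that array the *Hey1* log2 fold change was 4.21 (adjusted p = 5.92e-06 from limma). *Hes7* in vehicle replicate 1 was at 6.50, with the nearest at 6.75 (0.841). *Tle3* in vehicle replicate 3 was at 10.62, with the nearest at 10.45 (0.960). *Bambi*, a decoy receptor of BMP signaling that was higher in SHH-N cultures by 0.47 and is named here for this flag, was at 8.14 in SHH-N replicate 1, with the nearest SHH-N array at 7.93 (0.929). No cause of these single arrays was tested.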

How the results depend on the processing

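Over all clusters 1226 were higher and 1453 lower in SHH-N cultures. With the replicate number as a block these counts were 624 and 616, with the threshold at 0.05 they were 2073 and 2621, and with a fold of at least 1.5 they were 765 and 809. Leaving out 1 array gave 934 to 1070 higher and 1018 to 1322 lower. The labels do not say whether same-numbered cultures were paired. The deviations of same-numbered arrays from their group means correlated at -0.02, -0.02, -0.01 and 0.02. Only SHH-N replicate 4 correlated most with the vehicle array of its own number. Such values cannot decide whether the cultures were paired. Of the members 4 were higher, or 3 with the one-way analysis of variance, the replicate block, the fold of at least 1.5, and 6 of the 8 left-out arrays, and none was lower in any setting. The replicate block also left 1 higher gene among the corepressors and 0 among the endothelial markers. Among the BMP targets it left 1 higher and 2 lower, and among the neural crest markers 0 higher and 3 lower.

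The member lost in those settings was *Heyl*, at 0.54 on the log2 scale in the one-way analysis of variance (adjusted p = 0.0167), the replicate block (0.0196 from limma) and the fold criterion, and at 0.47 to 0.60 without single arrays, where it kept its call only without vehicle replicate 1 or 4. *Hes5* ranged from 0.039 to 0.197 and *Hes6* from 0.098 to 0.236 without single arrays. *Hes7* at 0.04 turned to -0.14 in its other cluster and ranged from -0.035 to 0.075 without single arrays, below 0 without vehicle replicate 1 (-0.035) or SHH-N replicate 1 (-0.00083). The causes were not tested. With 4 arrays per treatment, changes such as that of *Heyl* lie near the limit of what passes, and no measure of signal over background was used.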
